A study of Drosophila melanogaster with 6 samples.

Results

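The genes described here act in the decision of fly neural precursors to become glia: repo, gcm, gcm2, pnt and loco. They were taken by symbol from the platform's probe-to-gene table, where 4 of the 5 have 1 array row each that names them and no other gene. No row carries pnt under that table, so it has no value here. The 4 measured genes stand among 13346 genes with a row of their own, on arrays of 16322 rows. RNA came from adult heads, 15 to 25 per genotype, of flies that were kept at 25 °C and were roughly 3 to 5 days old, and was read on 3 control and 3 pool arrays. Control flies carried the repo-GAL4 driver with an empty TRiP RNA interference vector. Pool arrays held equal amounts of RNA from 7 lines crossed to that driver, namely SesB-RNAi, COX7A-RNAi, comt-RNAi, nrv2-RNAi, ATPalpha-RNAi, UAS-Dube3a and UAS-htt.12Q.FL. GAL4 is a yeast transcription factor that switches on any transgene carrying UAS sites. Both groups therefore carry repo-GAL4, and every transgene is driven under the control of repo, in glia. How the driver was built, where it is inserted and whether the repo row could read any of its transcript are not stated in the labels. The pool has no array of a single line, and the arrays of a group are not stated to come from separate flies, so every test measures the spread between arrays, which may be technical.

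In the fly embryo the transcription factor Gcm (glial cells missing) is made briefly and turns a neural precursor from the neuronal to the glial fate. It switches on repo (reversed polarity), a homeobox gene that then stays on in nearly all glia apart from those of the midline and holds them in the glial state, and also pnt (pointed) and loco (locomotion defects). The close relative gcm2 lies beside gcm, shares part of its role in glia, and acts with it in the formation of blood cells. The product of pnt is an ETS-domain transcription factor that carries out signals from the EGF and FGF receptors. The product of loco is a regulator of G protein signalling that acts with the receptor Moody in the glia of the blood-brain barrier.

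Values are on a log2 scale, inferred from their range of 3.20 to 14.02, so a step of 1 is a doubling of signal. A row's value depends on its probes, and values of different rows are not compared as amounts of RNA. Array medians lay between 5.53 and 5.63, and arrays correlated across rows at 0.9967 to 0.9978 within groups and 0.9952 to 0.9960 between them. The labels call the tissue brain, while the protocol took heads. All 13 measured neuron markers and 16 of 17 measured glial markers read in the upper part of the array, above its median row, while none of 11 measured egg shell genes, not expected in heads, did. Ube3a, the fly gene for the ubiquitin ligase that 1 pooled line overexpresses, rose by 0.97 in log2 (limma adjusted p = 0.00015). The measured RNA interference targets did not pass, with sesB and COX7A both at 0.05 and nrv2 at -0.07 (adjusted p = 0.713, 0.786 and 0.592).

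None of the 4 measured glial fate genes passed the test of pool against control, while 2 of them, repo and gcm, read lower on every pool array than on any control array. The array signal of both was about 12% lower, that of gcm on a row as dim as those of egg shell genes. The other 2, gcm2 and loco, had groups that overlapped. A gene was called where its Benjamini-Hochberg adjusted p in limma, taken over all rows, was under 0.05. Of all rows 2.90% were called, 1.65% higher and 1.24% lower in the pool. At an unadjusted p under 0.05 the count was 2 of 4, both lower, against 14.8% of all rows in either direction and 6.85% lower. Groups that did not overlap were found in 21.5% of all rows, and in 10.0% of all rows with the pool lower. A per-row test without moderated variance, adjusted the same way, also called 0 of the 4. The median log2 fold change of the 4 was -0.12, beside -0.00 over all named genes.

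**Figure D1:**
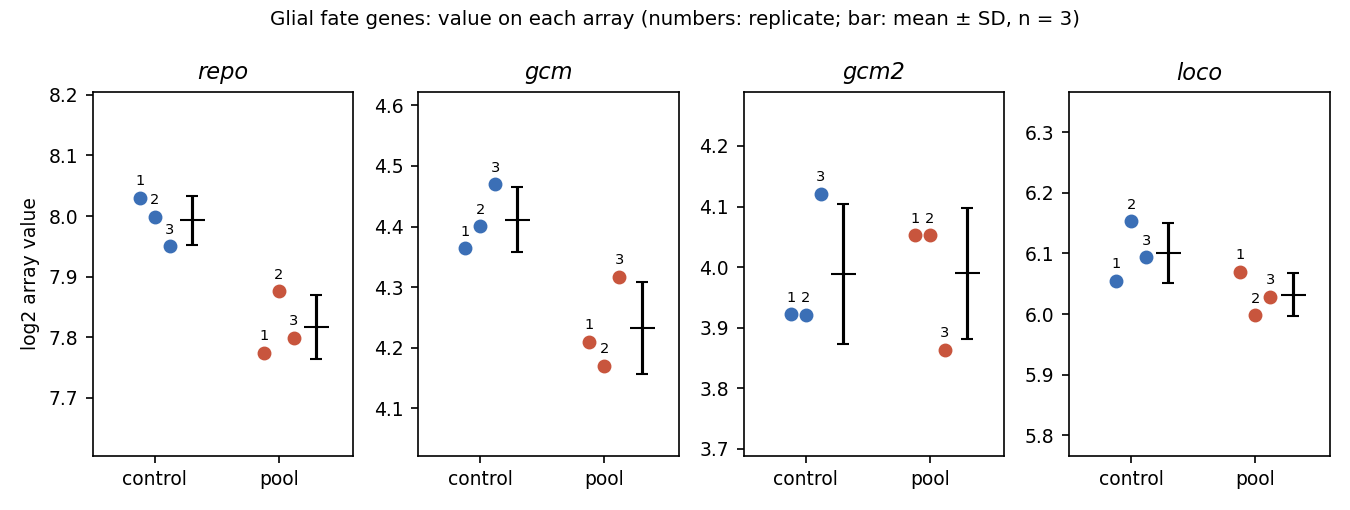
Log2 array value of repo, gcm, gcm2 and loco on each of 3 control and 3 pool arrays (points, numbered by replicate) with the group mean ± SD (bar); every panel spans the same height in log2 units. For repo and gcm all pool points lie below all control points, while for gcm2 and loco the groups overlap.

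The homeobox gene repo, whose product marks nearly all fly glia, read 8.030, 7.999 and 7.950 on the control arrays and 7.774, 7.876 and 7.799 on the pool arrays. The lowest control array and the highest pool array were 0.074 apart, which is close to the spread inside either group (0.080 from lowest to highest in the control and 0.101 in the pool). The group means were 7.99 ± 0.04 in the control and 7.82 ± 0.05 in the pool (SD, n = 3 per group). This is 0.885-fold, or a log2 fold change of -0.18 (standard error 0.054), and its 95% interval ran from -0.30 to -0.05. The unadjusted limma p for repo was 0.0118, and over all rows it became an adjusted p of 0.162, which did not pass. By p, the repo row stood at rank 1186 of the 16322 rows. The interval, which is not adjusted for the number of rows, ran from 3.51% to 18.9% below the control for repo. In a head sample, fewer glia and less repo RNA per glial cell cannot be told apart, and the same holds for every gene below.

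Its activator gcm, the switch of the glial fate, read 4.364, 4.400 and 4.470 on the control arrays and 4.210, 4.171 and 4.318 on the pool arrays. Again the pool lay wholly below the control, with 0.047 between the nearest arrays. The group means were 4.41 ± 0.05 and 4.23 ± 0.08 (SD, n = 3 per group). Their difference was -0.18 in log2 (standard error 0.060), with a 95% interval from -0.32 to -0.04. The unadjusted limma p for gcm was 0.0186 and the adjusted p 0.207. The row was dim: 28.4% of all row means lay at or below it, and it was just above the limit of 4.23 that bounds the dimmest 25% of rows. The 11 measured egg shell genes had row means of 4.08 to 5.12 with a median of 4.46, so the gcm row, at a mean of 4.32, read within the range of genes not expected in heads. These arrays carry no detection call in the deposited values, so whether any gcm RNA was present is not given by this row.

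The paralog gcm2 read 3.922, 3.921 and 4.121 on the control arrays and 4.052, 4.052 and 3.864 on the pool arrays. Its groups overlapped fully, with means of 3.99 ± 0.12 and 3.99 ± 0.11 (SD, n = 3 per group). The log2 fold change of gcm2 was 0.00 with a 95% interval from -0.18 to 0.19 (adjusted p = 0.996). In array signal that is 12.0% lower to 13.9% higher. On a row this dim signal may not follow RNA, so no limit on a change in gcm2 RNA is read from it. The row mean stood at percentile 11.03 of all rows, below every measured egg shell gene, and gcm2 was the 1 measured glial fate gene that did not pass a filter on the dimmest 25% of rows. Pool replicates 1 and 2 held an identical deposited value for gcm2, 1 of 16 rows where those 2 arrays coincide. Over all pairs of arrays, this pair included, the count ran from 6 to 16, so no pair had more. In the RefSeq annotation of the Release 6 plus ISO1 MT assembly 3 genes lie between gcm and gcm2. Of the genes next to the pair, lncRNA:CR43621 stood at a log2 fold change of -0.00 and CG31709 at -0.04 beside gcm, and CG4382 at 0.05 and the thioredoxin gene Trx2 at 0.07 beside gcm2, with adjusted p of 0.985, 0.892, 0.797 and 0.606. No row next to gcm or gcm2 separated the groups. The rows of lncRNA:CR43621, CG31709 and CG4382 were dim, with control means of 3.75, 4.03 and 3.98. Their pool means were 3.75, 3.99 and 4.03, and all of these lie under 4.23, the limit of the dimmest 25% of rows. On such rows signal may not follow RNA, so a lack of change in RNA is not read from them. The Trx2 row was bright, with a control mean of 9.09 and a pool mean of 9.17.

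The G protein regulator gene loco read 6.055, 6.153 and 6.094 on the control arrays and 6.070, 5.998 and 6.029 on the pool arrays. The groups overlapped narrowly: pool replicate 1 lay above control replicate 1, and the other pool arrays lay below all controls. Means of 6.10 ± 0.05 and 6.03 ± 0.04 (SD, n = 3 per group) gave a log2 fold change of -0.07 with a 95% interval from -0.19 to 0.05 (adjusted p = 0.624). The loco row was of middle brightness, at percentile 54.7 of row means, and repo stood at percentile 74.7. SDs of repo and loco, from 0.036 to 0.053, were below the median SD over all rows of 0.078 in the control and 0.073 in the pool. For loco, the interval therefore allows a pool level from 12.4% lower to 3.81% higher than the control.

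**Figure D2:**
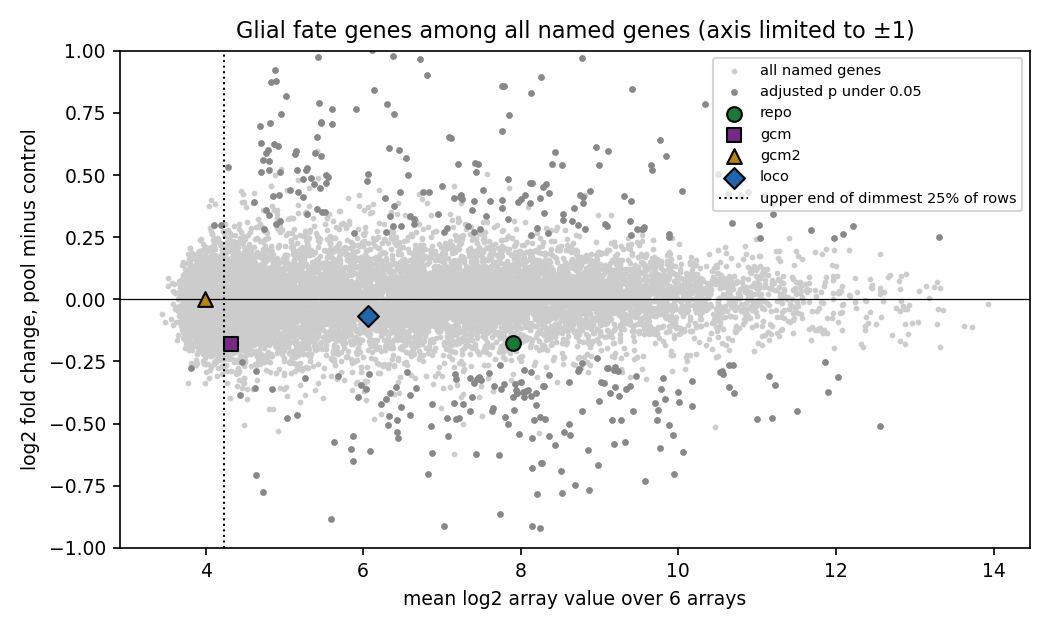
Log2 fold change, pool minus control (vertical axis), against the mean log2 array value over 6 arrays (horizontal axis) for all 13346 named genes in pale grey, genes with adjusted p under 0.05 in dark grey and the 4 glial fate genes as coloured symbols; 31 genes lie beyond ±1 and are not drawn. All 4 coloured symbols lie inside the pale cloud, gcm2 left of and gcm just right of the dotted line at the dimmest 25% of rows.

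An equal mixture of 7 lines limits what the pool can show for a glial regulator. If signal follows RNA in proportion and 6 lines match the control, a gene wholly lost in the remaining line would lower the pool by 14.3%, or -0.22 in log2, and a gene at 0.5 of its level in that line would lower it by -0.11. A doubling in 1 line would raise the pool by 0.19. The interval of repo holds -0.22 and -0.11. It ends below 0, but it is not adjusted for the number of rows, and the adjusted p of repo did not pass. On the same condition the interval of loco holds -0.11 and 0 but not -0.22. The share of background in the repo and loco signals was not measured, and any would make these steps smaller. No limit on a loss in 1 line is therefore read from the interval of loco. For gcm and gcm2, whose rows read as dim as or dimmer than those of egg shell genes, signal may not follow RNA, and their intervals are not read this way. Which line or lines carry a difference was not measured.

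Genes of EGF receptor and Ras signalling, the pathway in which the unmeasured pnt acts, gave 0 called of 16 measured. At an unadjusted p under 0.05 the count was 3 of 16, beside 14.8% of all rows. The test without moderated variance called none of the 16, and eBayes with trend and robust settings called 1, S (adjusted p = 0.0214). Their median log2 fold change was 0.06 and 11 of 16 were higher in the pool. The smallest p belonged to S (Star), which helps deliver the EGF-like ligand Spitz, which went from 9.35 ± 0.12 in controls to 9.63 ± 0.07 in pool arrays (SD, n = 3 per group; difference 0.28, adjusted p = 0.109). The receptor gene Egfr itself stood at -0.13 (adjusted p = 0.366). Among 7 measured ETS family genes, the family of pnt, 1 passed: Ets21C, an ETS factor gene of stress responses, rose by 0.39 in log2 (adjusted p = 0.0227), from 4.42 ± 0.08 to 4.81 ± 0.07 (SD, n = 3 per group). Of the 6 fits on 5 arrays, those without control replicate 3 and without pool replicate 3 kept the call (adjusted p up to 0.0868 in the others), and it was lost without moderated variance (0.108) and with the replicate block (0.0772). The Ets21C row, like that of gcm, read within the range of the egg shell genes. The other 6, among them the pnt antagonist aop at 0.05 and the pnt modulator edl at 0.11, did not pass.

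Both FGF ligands that fly glia receive through the receptor Heartless rose in the pool. The ligand gene pyr (pyramus) went from 9.23 ± 0.07 to 9.55 ± 0.05 (SD, n = 3 per group), which is 1.25-fold or 0.32 in log2 (adjusted p = 0.0308). The other, ths (thisbe), went from 9.27 ± 0.05 to 9.53 ± 0.02 (SD, n = 3 per group), which is 1.19-fold or 0.26 in log2 (adjusted p = 0.0406). The remaining 3 of the 5 measured FGF genes did not pass: the receptor genes htl at 0.07 and btl at -0.16, and the ligand gene bnl at -0.02. Neither ligand gene kept its call in any of the 6 fits on 5 arrays, where adjusted p reached 0.118 for pyr and 0.147 for ths. The call of ths was also lost with each array centred on its median (adjusted p = 0.13) and after quantile normalization (0.0515), while pyr stood at 0.0488 and 0.0353 there. Both lost it without moderated variance (0.101 for pyr and 0.0596 for ths) and with the replicate number as a block (0.0824 and 0.105). The htl row was dim, at percentile 20.97.

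G protein signalling genes, the partners and substrates of Loco and other regulators of its class, gave 0 called of 14 measured. Of these, 4 had an unadjusted p under 0.05, beside 14.8% of all rows. None was called without moderated variance, while trend and robust settings called 3, Galphaq (adjusted p = 0.00688), Gbeta76C (0.00631) and moody (0.043). Of the 14, 10 had a positive and 4 a negative log2 fold change, with a median of 0.11. The receptor gene moody, whose product works with Loco at the blood-brain barrier, averaged 8.60 on control and 8.79 on pool arrays (log2 fold change 0.20, adjusted p = 0.134). The G alpha gene Galphaq, of phototransduction, stood at 0.20 (adjusted p = 0.0957), Galphai at 0.12 (adjusted p = 0.445) and Galphao at 0.08 (adjusted p = 0.551). The polarity gene pins, which binds Galphai in dividing neural precursors, stood at 0.15 (adjusted p = 0.392). The visual G beta gene Gbeta76C stood at 0.19 (adjusted p = 0.118). All 7 measured photoreceptor markers were higher on every pool array than on any control array, with a median of 0.12. Over all rows, 21.5% had groups that did not overlap, and in 10.0% of all rows the pool was the lower group. Of the 7 markers 1, chp, was called (0.29, adjusted p = 0.0309). No fit on 5 arrays kept that call (adjusted p up to 0.119), and it was also lost without moderated variance (0.0733), with the replicate block (0.0902) and with arrays centred on the median (0.0699). The part of photoreceptors in the values of Galphaq and Gbeta76C was not tested.

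**Figure D3:**
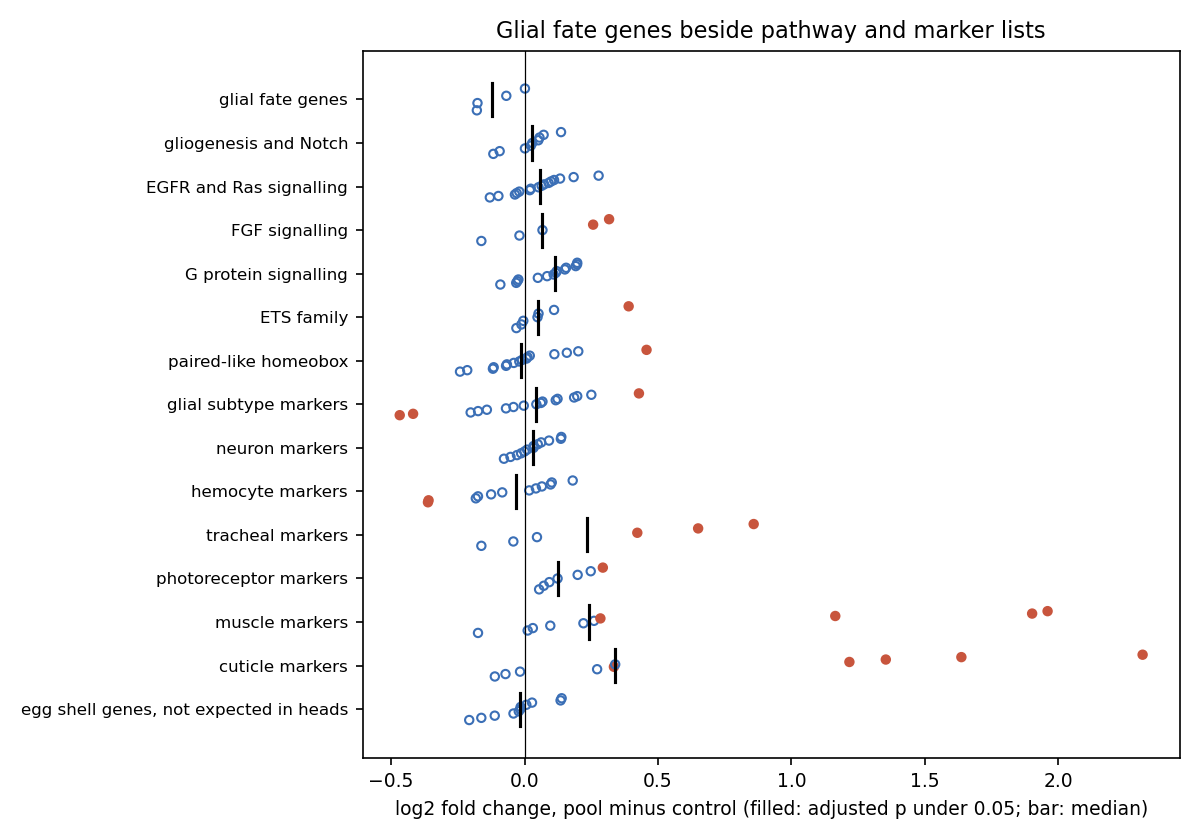
Log2 fold change, pool minus control (horizontal axis), of each measured gene of 6 pathway lists and 8 marker lists (rows), with the 4 glial fate genes at the top; filled points have an adjusted p under 0.05 and black bars are list medians. The glial fate genes lie between -0.18 and 0.00 with no filled point, and glial subtype markers spread to both sides, from -0.47 to 0.43.

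Genes that act beside Gcm and Repo in forming glia, including the Notch pathway, gave 0 called of 9 measured, 0 at an unadjusted p under 0.05, and none without moderated variance. They ranged from hkb, which cooperates with gcm, at -0.12 to the Notch-cleaving protease gene kuz at 0.14 (adjusted p = 0.516), with a median of 0.03. Homeobox genes of the paired-like kind, the class of repo, gave 1 called of 16 measured. That was Pph13, a photoreceptor gene, which rose by 0.46 in log2 from 6.77 ± 0.07 to 7.23 ± 0.07 (SD, n = 3 per group, adjusted p = 0.0084). Without moderated variance that call was lost (0.0651). The other 15 lay between unc-4 at -0.24 (adjusted p = 0.179) and eyg at 0.20 (adjusted p = 0.127), and the median of the list was -0.01. Of the 16, 6 had an unadjusted p under 0.05, beside 14.8% of all rows. Groups did not overlap for 5 of the 16, 3 higher and 2 lower in the pool, beside 21.5% of all rows.

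Glial genes that mark the cells in which repo is on lay on both sides of 0. Of 17 measured, 1 rose and 2 fell, with a median log2 fold change of 0.04, and the mean over the list was 8.970 to 9.004 on the control arrays and 8.962 to 9.016 on the pool arrays. The cortex glia genes wrapper and zyd fell by 0.47 and 0.42 on the log2 scale (adjusted p = 0.00299 and 0.0149), and Obp44a rose by 0.43 (adjusted p = 0.00387). Of the 6 fits on 5 arrays, only that without control replicate 3 kept zyd (adjusted p up to 0.0673), and without moderated variance its adjusted p was 0.0909. The astrocyte gene alrm, at -0.17 (adjusted p = 0.143), and the barrier transporter gene Mdr65, at -0.20 (adjusted p = 0.144), were lower on every pool array by about as much as repo. With trend and robust settings alrm was called (adjusted p = 0.0176) and Mdr65 was not (0.0654). Those settings also called moody, which was higher in the pool (0.043). The engulfment receptor gene drpr at 0.19 (adjusted p = 0.143) and the septate junction gene Gli at 0.25 (adjusted p = 0.177) were higher on every pool array. Gs2, a glutamine synthetase gene of glia, stood at -0.00 with a 95% interval from -0.12 to 0.11. In all, 11 of the 17 had groups that did not overlap, 6 lower and 5 higher in the pool, beside 21.5% of all rows. One of the 6 lower is nrv2, itself the target of a pooled line.

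Some markers of other cells passed the test, and their part in the values of repo, gcm and loco was not tested. Neuron markers gave 0 called of 13 measured and 0 at an unadjusted p under 0.05, with a median of 0.03. Hemocyte markers, the cells in whose formation gcm and gcm2 take part, gave 2 called of 12, both lower. These were the crystal cell prophenoloxidase genes PPO1 and PPO2, each at -0.36 (adjusted p = 0.00875 and 0.00827), and the list median was -0.03. The plasmatocyte gene Hml stood at -0.17 (adjusted p = 0.134) and was lower on every pool array. The list as a whole had 6 genes higher and 6 lower. Groups did not overlap for 6 of the 12, beside 21.5% of all rows, with 5 lower and 1 higher in the pool. The lower ones were PPO1, PPO2, Hml, Sr-CI at -0.18 (adjusted p = 0.174, and 0.031 with trend and robust settings) and He at -0.08 (adjusted p = 0.532). The higher one was Pvr at 0.10 (adjusted p = 0.467). Among genes with overlapping groups, the plasmatocyte receptor gene NimC1 stood at 0.18 (adjusted p = 0.326) and the crystal cell factor gene lz at 0.10 (adjusted p = 0.658). Averaged over the hemocyte list, control arrays read 7.32 to 7.39 and pool arrays 7.28 to 7.33. Tracheal markers, from a tissue whose development also uses pnt, gave 3 called of 6, all higher: serp (0.86), verm (0.65) and Gasp (0.42), with adjusted p of 0.00103, 0.00828 and 0.0104. All 3 encode chitin-binding secreted proteins also made by epidermis, while the tracheal receptor gene btl stood at -0.16. The call of Gasp was lost without pool replicate 3 (adjusted p = 0.051), and those of Gasp and verm without moderated variance (0.0658 and 0.101). Muscle markers gave 4 called of 10 and cuticle markers 5 of 10, all higher, beside 1.65% of all rows. Like the other lists, these were chosen with earlier results of these data known, so the counts are a description and no test. The muscle median was 0.24, from sls at -0.17 to Act88F at 1.96, and 1 of 10 was lower. The cuticle median was 0.34, from Cpr51A at -0.11 to Acp1 at 2.32, and 3 of 10 were lower. List means, on which the strongest risers weigh, were 8.99 to 9.04 against 9.57 to 9.61 for muscle. For cuticle they were 6.58 to 6.61 against 7.29 to 7.36. The muscle call of up was lost in every fit on 5 arrays (adjusted p up to 0.0954). Of the fits on 5 arrays, only that without pool replicate 2 kept the cuticle call of Cpr62Bb (adjusted p up to 0.145 in the others). That call was also lost without moderated variance (0.145) and with the replicate block (0.0959).

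Across the 6 arrays the named gene most like repo was snoRNA:Me18S-C1968, a small nucleolar RNA that guides ribosomal RNA modification, with a Pearson r of 0.996. It averaged 12.97 on control and 12.79 on pool arrays, a log2 fold change of -0.18 (adjusted p = 0.141). Next came uno at 0.994 and CG42394 at 0.992, with log2 fold changes of -0.12 and -0.16. All 3 gave the arrays the same rank order as repo (Spearman rho of 1). Among 13345 genes compared over these 6 arrays, 254 had r above 0.9, so the likeness is a description. Of the glial fate genes, gcm had r of 0.644 with repo, loco 0.477 and gcm2 -0.107. CG7156, the measured neighbour of repo, stood at -0.06 with overlapping groups (adjusted p = 0.806).

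The direction of repo, gcm and loco was lower in the pool under all 15 alternatives tried, and gcm2 changed sign with the setting. Much of this was fixed in advance. The dim-row filter, rows with 1 symbol, the replicate block and trend and robust eBayes leave the estimate as it is. So do the test without moderated variance and averaging rows. For repo and gcm, whose groups did not overlap, leaving out 1 array could not turn the sign. For repo the log2 fold change ranged from -0.21 to -0.16 with adjusted p from 0.102 to 0.367, and for gcm from -0.22 to -0.15 with adjusted p from 0.161 to 0.423. The unadjusted p of repo stayed under 0.05 under all 15, and that of gcm under 12 of 15. For loco the range was -0.10 to -0.04, with adjusted p from 0.467 to 0.817.

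**Figure D4:**
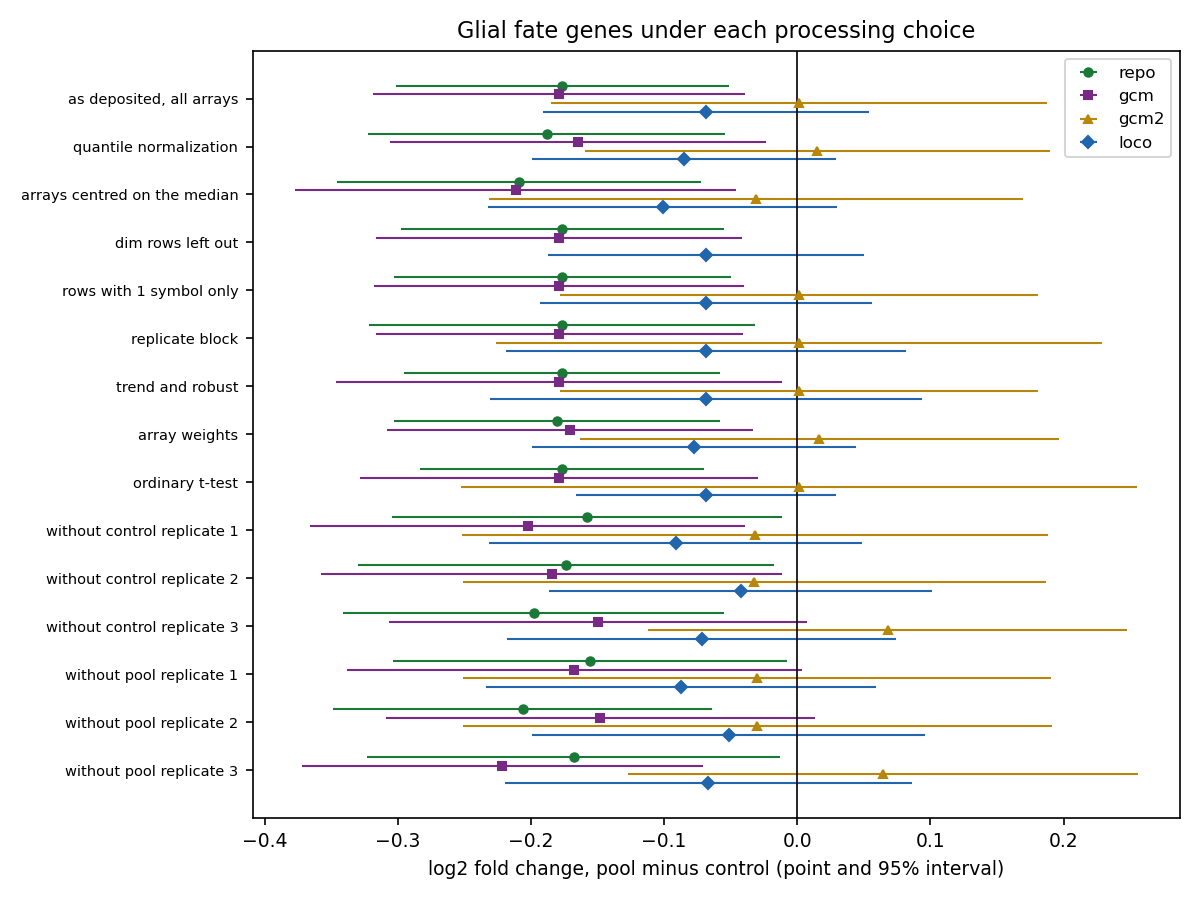
Log2 fold change, pool minus control, with 95% intervals (horizontal axis) of repo, gcm, gcm2 and loco for the values as deposited and for each alternative (vertical axis); gcm2 has no value where dim rows were left out, and averaging the rows of a gene, which leaves these estimates as they are, is not drawn. The points of repo and gcm stay between -0.22 and -0.15, those of loco between -0.10 and -0.04, and those of gcm2 lie on both sides of 0.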

How the data were processed

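Total RNA from heads was hybridised to 6 GeneChip Drosophila Gene 1.0 ST arrays. The authors processed them with Affymetrix Expression Console, per the submitters' processing notes. Its settings and the build behind the rows are not given here. The deposited log2 values were used without further scaling, so any background correction and normalization by the authors is part of them. Arrays give no read depth; their number limits the precision, and a log2 fold change had a median standard error of 0.068.

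Rows were named by the platform's table, with 144 symbols updated through RefSeq, and 13441 of 16322 rows had 1 symbol. Groups were compared with limma 3.58.1 in R 4.3.3 (lmFit and eBayes, two-sided, residual degrees of freedom 4), with Benjamini-Hochberg adjustment over all rows. Of a gene's rows, the one of highest mean stood for it. The genes and lists were chosen with earlier results of these data known. Genes named were the members, up to 3 called genes of largest change per list or else that of smallest p, and the 3 most like repo; other list genes, and the neighbours of members, were chosen after their values were seen. Alternatives were quantile normalization, median centring, a filter on dim rows, rows with 1 symbol, a replicate block, trend and robust eBayes, array weights, a test without moderated variance, averaging the rows of a gene, and each array left out. The fit was tested on simulated data, where it called 42% of 50 rows changed by 0.3 in log2 and 92% of 50 changed by 0.6. Same-numbered arrays of the groups did not deviate together (correlations of -0.014, -0.0048 and 0.090). Promoter and protein sequences were not analysed here. Figures used matplotlib 3.10.9 in Python 3.11.15.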

Additional observations from a re-analysis of the deposited data

How the results depend on the processing

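The count of 0 called among the 4 glial fate genes held under all 15 alternatives (14 for gcm2, which the filter on dim rows removed). The number of called rows over the array was less steady. Against 473 it was 312 with the replicate block, 861 with trend and robust eBayes, 196 without moderated variance, and 218 to 312 with 1 array left out. The replicate numbers are not shown to pair the arrays, and repo under the block had an adjusted p of 0.252, gcm 0.231. The log2 fold change of gcm2, near 0, turned to -0.031 with arrays centred on the median, and leaving out 1 array gave -0.032 to 0.068; the cause was not tested. Centring on the median lowered the median fold change over all rows by -0.03 and moved the share of calls that were higher from 57.1% to 46.8% (219 higher and 249 lower, against 270 and 203). The gcm and gcm2 rows were as dim as those of egg shell genes, which limits what they can show. The smallest called change of any row was 0.23 in absolute log2, larger than the differences of repo and gcm. With signal in proportion to RNA, a gene wholly lost in 1 pooled line would give -0.22. The count of 0 called therefore says little about changes in single lines.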
